A study of Rattus norvegicus with 5 samples.

Results

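The EGR transcription factors Egr1, Egr2, Egr3 and Egr4 and their corepressors Nab1 and Nab2 were followed in Fao cells, a rat hepatoma line that keeps many hepatocyte functions, during the first hour of insulin. These 6 genes were chosen by the gene names printed on the array, and each was represented by 1 probe, out of 35636 genes or transcripts on the array. After 2 days in 10% serum, all 5 samples, the 0 min control included, spent 16 h without serum in the presence of dexamethasone at 10 nM (a glucocorticoid drug), and 10 nM insulin then acted for 0, 15, 30, 45 or 60 min. Each time was read on a single array of Cy3-labelled RNA, so no p-value belongs to a single time and precision is limited by the 5 arrays. Of the 6 genes, 4 were detected, meaning well above background by the scanner software, on all 5 arrays (Egr1, Egr2, Nab1 and Nab2), 1 only on the arrays of 30 and 45 min (Egr3) and 1 on none (Egr4).

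EGR proteins are zinc finger factors that bind GC-rich sites and are made within minutes of a growth factor or hormone signal. In many cells that signal travels through ERK kinases to SRF and its ternary complex partners, which sit on CArG boxes in the promoters of such immediate early genes. Nab1 and Nab2 bind an inhibitory domain of Egr1, Egr2 and Egr3, recruit a chromatin repressor complex and so damp EGR activity, and Nab2 is itself known as a gene that EGR factors switch on.

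The promoters of Egr1 and Egr2 are shown because both transcripts peaked at 30 min, and that of Egr4 because this relative was not detected. That of Nab2 is shown because it was above its start at 60 min, where Egr1 and Egr2 were below theirs. Each sequence is the 250 bases before the start of the gene in RefSeq, 5′ to 3′ along the gene, on the rat assembly GRCr8. Capitals mark CArG boxes and the sequence TGACG, the core of the site of CREB, on either strand (CGTCA where it lies on the opposite strand).
Egr1 (chr18:26736828-26737077, plus strand): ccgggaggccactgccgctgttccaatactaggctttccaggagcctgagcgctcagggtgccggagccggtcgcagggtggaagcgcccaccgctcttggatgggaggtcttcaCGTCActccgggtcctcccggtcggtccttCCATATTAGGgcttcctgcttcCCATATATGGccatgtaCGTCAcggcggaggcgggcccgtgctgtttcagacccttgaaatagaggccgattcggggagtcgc
Egr2 (chr20:21054442-21054691, minus strand): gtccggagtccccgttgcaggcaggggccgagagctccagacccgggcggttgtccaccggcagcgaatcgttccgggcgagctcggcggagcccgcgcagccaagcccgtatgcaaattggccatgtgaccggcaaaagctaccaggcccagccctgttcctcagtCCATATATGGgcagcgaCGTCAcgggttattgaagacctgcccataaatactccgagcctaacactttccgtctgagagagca
Egr4 (chr4:119607818-119608067, minus strand): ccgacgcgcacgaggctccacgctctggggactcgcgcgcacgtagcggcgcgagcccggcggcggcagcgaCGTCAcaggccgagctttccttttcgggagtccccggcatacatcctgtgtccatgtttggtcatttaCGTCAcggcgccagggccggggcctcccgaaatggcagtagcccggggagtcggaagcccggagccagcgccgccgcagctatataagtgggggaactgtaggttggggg
Nab2 (chr7:65389256-65389505, minus strand): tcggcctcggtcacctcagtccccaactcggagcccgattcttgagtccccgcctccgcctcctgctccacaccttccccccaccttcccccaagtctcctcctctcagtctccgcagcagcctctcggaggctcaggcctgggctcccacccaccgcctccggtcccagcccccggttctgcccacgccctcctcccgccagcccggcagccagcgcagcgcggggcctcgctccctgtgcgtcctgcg

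The same CArG box, CCATATATGG, lay 83 to 74 bases before the start in both Egr1 and Egr2, and in both a CGTCA followed it 66 to 62 bases before the start. Egr1 held another CArG box 105 to 96 bases before the start and another CGTCA 135 to 131 bases before it. A CArG box occurred in 1.64% of the 33469 promoter windows of 300 bases in the table (250 before and 50 after the start), CCATATATGG in 0.0329%, and at least 2 CArG boxes in 0.0209%, or 7 promoters. A CArG box together with TGACG on either strand occurred in 0.272% of windows, and TGACG alone in 21.2%.

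The window of Egr4 held 2 copies of CGTCA and no CArG box. The window of Nab2 held neither. That of Nab1 held no CArG box and 1 CGTCA, and it was the only window among the 5 matched members with the EGR site GCGNGGGCG, at 4 places, searched on both strands. All 4 of these overlapped the shorter sequence GGGCGG, the site of the factor Sp1, which Nab1 held at 10 places. GCGNGGGCG occurred in 4.98% of all windows and GGGCGG in 33.1%. A match is a stretch of letters and not a measured site, and letters outside the window were not searched.

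Egr1, the founding member of the family, is the only one whose probe is printed at 10 spots per array. Its signal averaged 7150 ± 871 intensity units (SD over 10 spots) at 0 min, 6527 ± 697 at 15 min, 11843 ± 1473 (9 spots, 1 left out as an outlier by the scanner software) at 30 min, 5847 ± 766 at 45 min and 2870 ± 344 at 60 min. Divided by the 75th percentile of signal on each array and put on a log2 scale, these are levels of 4.57, 4.61, 5.55, 4.52 and 2.58. The transcript was therefore level for 15 min, high on the 30 min array, back near its start at 45 min and below its start at 60 min. These SDs describe spots of 1 array and hold no variation between cultures.

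Against 0 min, Egr1 was 1.96-fold higher at 30 min, a log2 change of 0.97, and 3.98-fold lower at 60 min, a log2 change of -1.99. Spot positions vary across the slide, so the change was also taken position by position. At 30 min all 9 usable positions were higher, by 0.735 to 1.31 log2 units (mean 0.996 ± 0.167 SD), and at 60 min all 10 were lower, by a mean of -1.99 ± 0.08. At 15 min 6 of 10 positions were higher and the mean was 0.04 ± 0.15, and at 45 min 3 of 10 were higher with a mean of -0.06 ± 0.14, both within the spread between spots. The fall from 30 to 45 min was -1.06 ± 0.07 and that from 45 to 60 min -1.94 ± 0.16, with every usable position lower in each step.

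**Figure D1:**
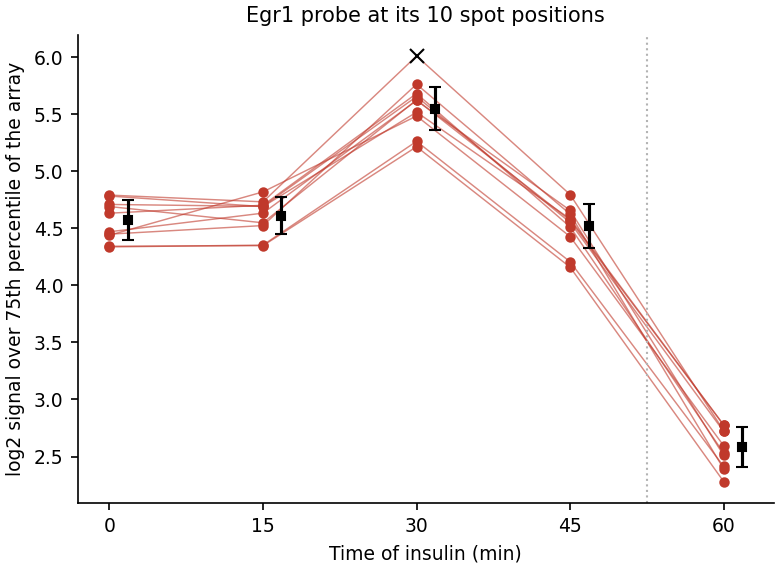
Level of the Egr1 probe (log2 signal over the 75th percentile of the array) against time of insulin in minutes, with 1 line per spot position and black squares for the level of the mean signal with the SD over spots. The cross is the spot left out as an outlier at 30 min. All 10 lines peak at 30 min and end below their start, at a level of 2.58 against 4.57, and the dotted line separates the slide of 0 to 45 min from that of 60 min.

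Egr2, the Krox20 factor known for myelination and T cell restraint, gave the largest change of the family at 30 min. Its single spot read 762 ± 76 intensity units (the error the scanner software gives) at 0 min, 1030 ± 103 at 15 min, 3529 ± 353 at 30 min, 1707 ± 171 at 45 min and 513 ± 51 at 60 min. Unlike Egr1, it was already higher at 15 min and still higher at 45 min, and like Egr1 it ended below its start. Relative to the start, Egr2 stood 1.52-fold up after 15 min. It reached 5.49-fold after 30 min, came down to 2.64-fold after 45 min, and was 2.37-fold lower after 60 min.

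At 30 min no other gene of 17153 measured on both arrays had a larger log2 change than the 2.46 of Egr2, while 44 had a larger one than Egr1. At 45 min 20 of 17234 genes lay above Egr2. At 60 min 8 of 17839 genes lay below Egr1 and 62 below Egr2. For scale, the median SD between spots of 1 probe gives a change a technical SD of 0.184 to 0.196 log2 units, depending on the time, and over all genes measured on both arrays the changes had an SD of 0.227, 0.237, 0.251 and 0.343 at 15, 30, 45 and 60 min. The change of Egr2 at 15 min, 0.60, exceeded both measures there, and 167 of 17262 genes lay above it.

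Egr3, which is needed for muscle spindles and shares roles with Egr2 in T cells, was near the limit of detection. Its signal was 10.7 ± 2.2 at 0 min, 5.54 ± 1.99 at 15 min, 19.1 ± 2.7 at 30 min, 17.7 ± 2.8 at 45 min and 13.7 ± 3.3 at 60 min. Only the values of 30 and 45 min were well above background, so a fold is a bound: the dim array enters with whichever was higher, the reading of Egr3 itself or the dimmest reading of any detected probe there. Egr3 was at least 2.12-fold higher at 30 min and at least 1.96-fold higher at 45 min than at 0 min. At 0 min the reading of Egr3 itself was the higher, so both bounds carry its noise. No fold was given at 15 and 60 min, where neither array was well above background.

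Egr4, a member without the domain that NAB proteins bind, was well above background on no array. Its signal was negative after background subtraction on all 5, between -2.92 and -0.648 intensity units with software errors of 1.78 to 2.65. No level or fold was given for it. This limits what the probe could measure and does not show that the transcript was absent.

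Nab1, the more constant of the NAB corepressors in most tissues, read 56.8 ± 6.0, 45.1 ± 4.9, 53.8 ± 5.7 and 53.6 ± 5.8 intensity units at 0, 15, 30 and 45 min and 161 ± 16 at 60 min. On the scaled log2 values these were -2.40, -2.56, -2.24, -2.25 and -1.57. The first 4 arrays differed from 0 min by at most 0.17, less than the technical SD of a change, and the 60 min array alone stood higher, by 0.83 or 1.78-fold. With the normexp background correction, which adds a constant of 50 to every signal, that change was 0.36.

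Nab2, the corepressor that is itself an EGR target, read 31.8 ± 3.7 intensity units at 0 min, 28.3 ± 3.4 at 15 min, 32.7 ± 3.8 at 30 min, 39.2 ± 4.5 at 45 min and 151 ± 15 at 60 min. After scaling, the levels were -3.24 at both 0 and 15 min, then -2.96, -2.70 and -1.67. Each array from 30 min on was thus above the one before it. Nab2 was 1.22-fold up after 30 min and 1.46-fold up after 45 min, log2 changes of 0.29 and 0.54. With arrays scaled to labelled control transcripts these were 0.14 and 0.33, and with normexp 0.20 and 0.25. The 0.14 is below the technical SD of a change. After 60 min Nab2 was 2.98-fold up, and 20 of 17839 genes had a larger log2 change than its 1.58 there. With normexp the change at 60 min was 0.69, which is under 2-fold. The step from 45 to 60 min alone was 2.05-fold.

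**Figure D2:**
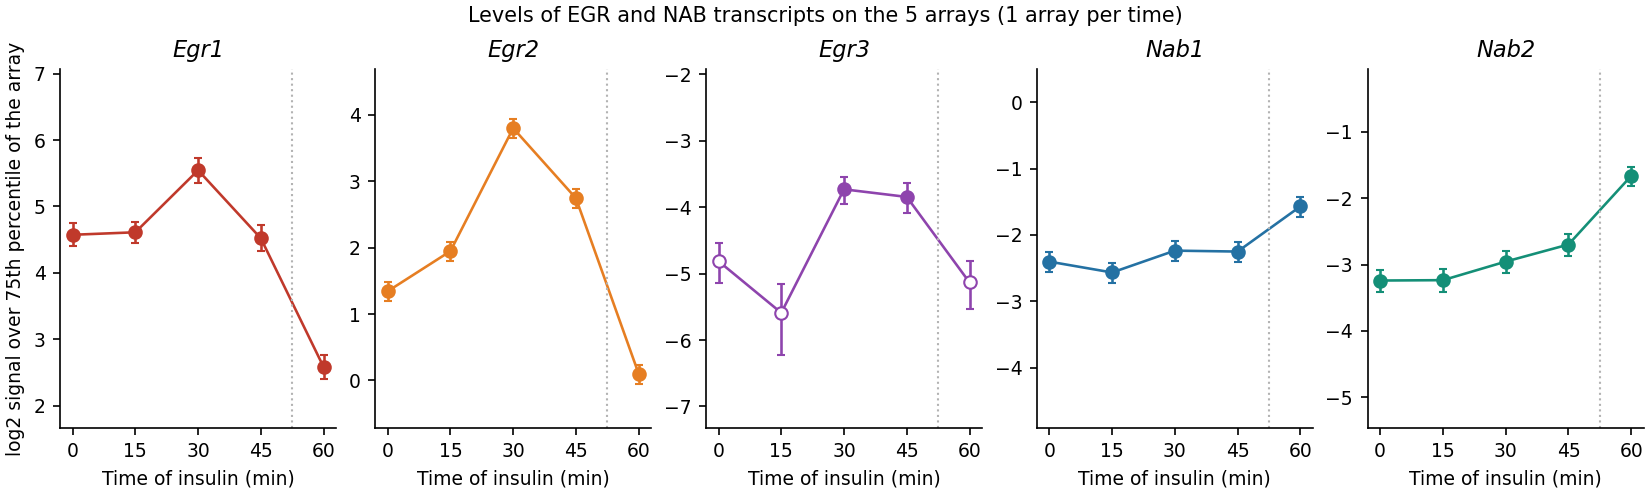
Level of each detected member (log2 signal over the 75th percentile of the array) against time of insulin in minutes, each panel spanning the same range of log2 units. Bars are the SD over spots for Egr1 and the error given by the scanner software for the single spots of the others, open points are not well above background, and the dotted line separates the slides. Egr1 and Egr2 peak at 30 min and are lowest at 60 min, where Nab1 and Nab2 are highest (-1.57 and -1.67).

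The array of 60 min lay on another slide and was scanned separately from the other 4, and its 75th percentile of signal was 479 against 254 to 300. Slide and time cannot be told apart at 60 min, and position and time cannot be told apart within the slide of 0 to 45 min. The NAB probes were dim, so their 60 min values were set beside genes of like signal. Among 4563 genes measured on both arrays with a 0 min level from -4 to -2, the median change at 60 min was -0.01 with an SD of 0.415. Of these, 2.39% had a larger change than Nab1 and 0.219% a larger one than Nab2. Within the slide of 0 to 45 min, the largest change from 0 min was 0.54 for Nab2 and, in size, 0.17 for Nab1. From 15 to 30 min on that slide Nab1 changed by 0.33. The part of the slide in the 60 min values of the family was not tested.

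Counted at a 2-fold threshold against 0 min, no member passed it at 15 min, where 0.965% of all 18546 genes with a value were higher and 1.43% lower (0.11% and 0.278% of genes detected on both arrays). At 30 min 2 of 5 members with a value were higher, Egr2 and, by its bound, Egr3, and none was lower. The share among all 18435 genes was 1.04% higher and 1.16% lower (0.233% and 0.21% with both arrays detected). Egr1, at 1.96-fold, fell just short. At 45 min 1 of 5, Egr2, was higher and none lower, against 1.32% and 1.55% of 18574 genes (0.325% and 0.273% with both arrays detected). At 60 min Nab2 was higher (not with normexp) and Egr1 and Egr2 were lower, out of 4 members with a value, against 2.04% and 1.84% of 19603 genes (0.656% and 0.684% with both arrays detected). With arrays scaled to labelled control transcripts instead, the split over all genes moved from 192 higher and 214 lower to 156 and 293 at 30 min, from 246 and 288 to 201 and 397 at 45 min, and from 400 and 361 to 275 and 526 at 60 min. With only 6 genes chosen, and chosen with these results known, the counts describe the family and are not a test.

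**Figure D3:**
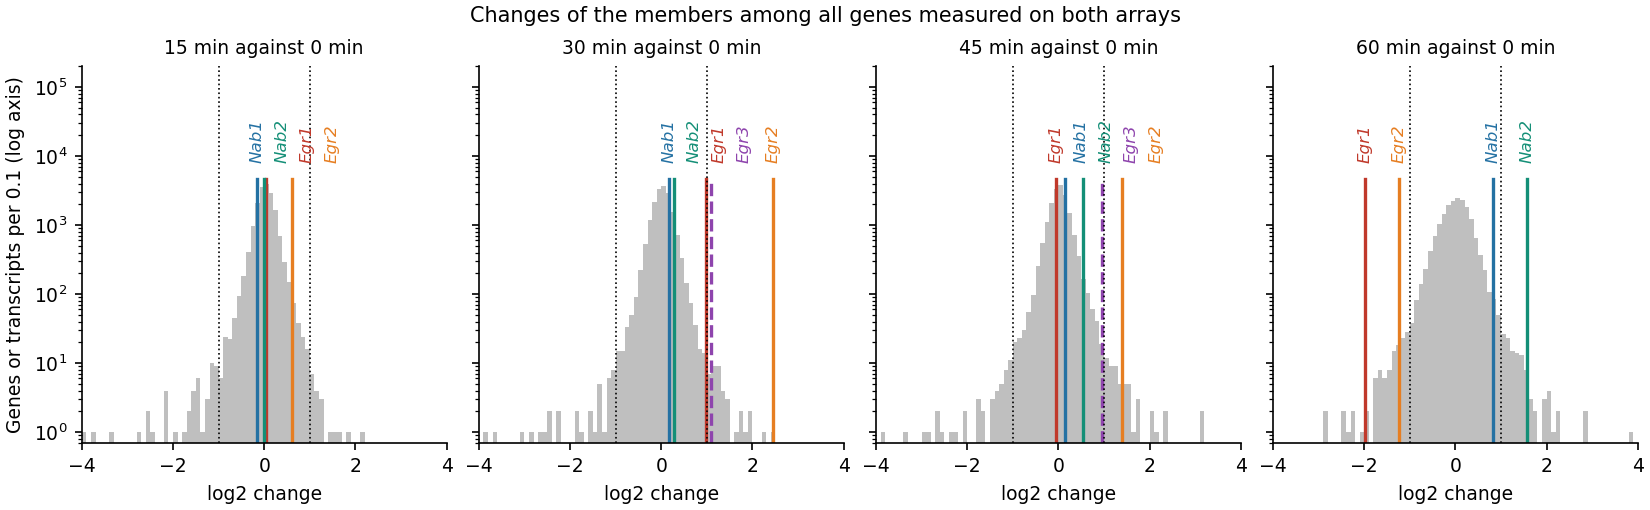
Log2 change from 0 min at each time for all genes measured on both arrays (grey bars, number of genes per 0.1 log2 units on a log axis), with coloured lines at the members and dotted lines at 2-fold. The dashed line of Egr3 is a bound. At 30 min Egr2 stands at 2.46, to the right of every grey bar but its own. At 60 min Egr1 at -1.99 and Nab2 at 1.58 stand near opposite ends, with 8 genes below Egr1 and 20 above Nab2.

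From one array to the next, the EGR and NAB genes took different courses. From 15 to 30 min, Egr2 was 3.61-fold higher and Egr3 at least 2.87-fold higher, against 1.04% of all genes higher and 0.964% lower, and Egr1 was 1.91-fold higher, while Nab1 and Nab2 had log2 changes of 0.33 and 0.28. From 30 to 45 min Egr1 was 2.04-fold lower and Egr2 2.08-fold lower, against 0.93% of all genes lower and 0.974% higher, and Egr3 was only 1.08-fold lower. From 45 to 60 min, across the slides, Egr2 was 6.25-fold lower and Egr1 3.83-fold lower, against 1.36% of all genes lower. Egr3 was lower by a bound of 2.44-fold, which used its own undetected reading at 60 min and so carries its noise. Before scaling, Egr3 read 17.7 ± 2.8 at 45 min and 13.7 ± 3.3 at 60 min, where the 75th percentiles were 255 and 479. Nab2 was the only member 2-fold higher, against 1.41% of all genes. The decline of Egr1 and Egr2 thus began on the slide that holds 0 to 45 min.

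A straight line over time was fitted with limma to the 20513 genes detected on any array. It describes a rise and fall poorly, and no gene passed Benjamini-Hochberg adjustment at 0.05 (0% called), although 8.75% (1794) had an unadjusted p under 0.05. The slope of Nab2 was 1.48 ± 0.34 log2 units per hour (SE over 5 arrays; limma adjusted p = 0.489) and that of Nab1 0.79 ± 0.26 (limma adjusted p = 0.538). With normexp fitted without 5 distorting spots the slope of Nab2 was 0.59 ± 0.14 (limma adjusted p = 0.552). Nab2 sloped upward without the 60 min array too, at 0.76 ± 0.16 per hour (limma adjusted p = 0.567). The slopes of Egr1, -1.63 ± 0.95, Egr2, -0.677 ± 1.496, and Egr3, 0.35 ± 0.64, had limma adjusted p-values of 0.616, 0.886 and 0.859. With the 60 min array left out, Egr1 and Egr2 sloped upward instead, by 0.31 and 2.42 per hour (limma adjusted p = 0.926 and 0.582). Adding a curved term left no gene called by limma's F-test, with 4230 genes at an unadjusted p under 0.05 and an adjusted p of 0.218 for each of Egr1, Egr2, Nab1 and Nab2.

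The genes with the most similar course were sought among 16714 others well above background on all 5 arrays, after each profile was centred on its own mean. Likeness was the root mean square difference over the 5 arrays, which share RNA, slide and scaling with the members, so it is a description. For Egr2 the nearest of all was Egr1, at 0.562 log2 units, followed by Syce2, Junb, Zfp36 and Rbm48 at 0.708 to 0.743. For Egr1 the nearest was Zfp36, at 0.400, which codes for the mRNA decay factor tristetraprolin, followed by B3galt1, Rasd1, Junb and Rbm48 at 0.410 to 0.489, and Egr2 ranked 16. Zfp36 was 1.07 log2 units higher at 30 min and -1.01 at 60 min, and Junb, a partner of Fos in AP-1, was 1.20 higher at 30 min and -0.64 at 60 min. Zfp36 had 1 CArG box in its promoter window, whereas B3galt1, Rasd1, Junb and Rbm48 had none. Syce2 had no promoter entry.

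Among genes with a symbol, the nearest to Nab2 were Pvr, a cell adhesion receptor, at 0.121, the clock repressor Per2, at 0.142, and Klf5 and Epc1, at 0.145 and 0.154. A further transcript without a symbol was nearer than Pvr, and 2 were nearer than Klf5. These 4 named genes were highest at 60 min, by 1.29 to 1.41 log2 units over 0 min. Another probe of Klf5 gave 1.39 at 60 min, whereas another probe of Epc1 gave 0.88. Nab1 ranked 61 in likeness to Nab2, at 0.262, and Egr1 and Egr2 ranked 16710 and 16713 of 16714. Nab1 itself spanned 0.995 log2 units, under the 1 required for this comparison.

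**Figure D4:**
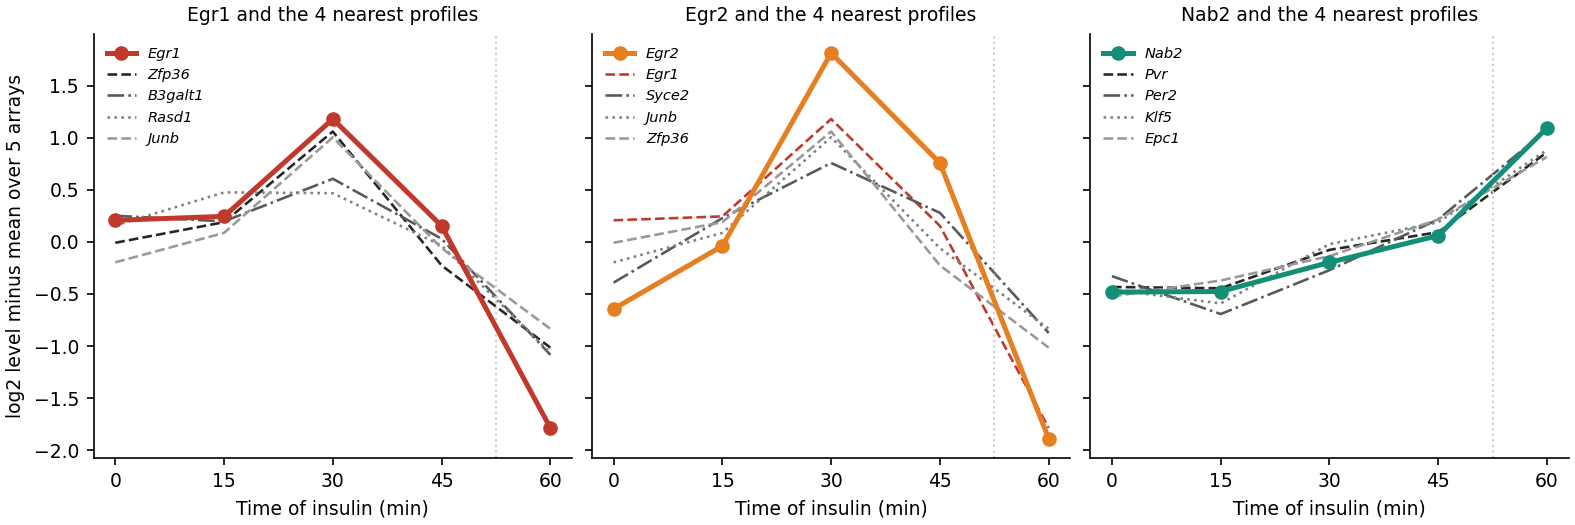
Log2 level minus its mean over the 5 arrays against time of insulin in minutes, for Egr1, Egr2 and Nab2 (thick lines) and the 4 named genes with the nearest profiles (thin lines). The dotted line separates the slides. Egr1 is the nearest profile of Egr2 (0.562), and the named neighbours of Nab2 lie within 0.121 to 0.154 of it.

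Upstream of the family, 17 genes of the ERK to SRF route were on the array, from Grb2, an adaptor of receptor kinases, to Srf. Of these, 16 or 17 had a value at each time and none was 2-fold higher or lower by its brightest probe. Over all genes, 0.965% to 2.04% were 2-fold higher and 1.16% to 1.84% lower at the 4 times. A count of 0 among so few genes is near these shares. The median log2 change of the route lay between -0.02 and 0.04 at the 4 times, beside 0.03, 0.02, 0.02 and 0.04 over all genes at 15, 30, 45 and 60 min. Srf, the factor that binds CArG boxes, had log2 changes of -0.13, 0.44, 0.55 and 0.92, and its other probes gave 0.97 and 0.74 at 30 min and 0.87 and 1.10 at 60 min. Grb2 had 0.57 at 60 min by its brightest probe but -0.01 by another.

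Downstream, 14 of 19 genes known as EGR1 targets were detected on at least 1 array, and F3, Fn1, Plau, Thbs1 and Fgf2 on none. Of 13 or 14 with a value, 10 were above their 0 min level at 15 and 30 min, 11 at 45 min and 12 at 60 min. Their median log2 changes were 0.16, 0.16, 0.36 and 0.33, beside the same medians over all genes as above. These medians depended on the reference and the scale. Against the 15 min array they were -0.04, 0.02 and 0.13 at 30, 45 and 60 min. With control-transcript scaling they were -0.02, 0.01, 0.15 and 0.12 at the 4 times, where the median of all genes was -0.15, -0.13, -0.19 and -0.17. The median at 15 min was -0.24 under normexp fitted to every spot. No target was 2-fold lower at any time, which for so few genes is near the 1.16% to 1.84% over all genes. Those 2-fold higher included Icam1, a leukocyte adhesion molecule, with log2 changes of 1.18 and 1.22 at 45 and 60 min, and Ptges, a prostaglandin E synthase, by a bound at 15 min. With bounds left out, the medians were 0.15, 0.16, 0.36 and 0.27. Cdkn1a, a cell cycle inhibitor, had changes of 0.34 to 0.49, and 0.26 to 0.75 by another probe. Igf2, a growth factor, had changes of 0.42 to 0.80.

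Among the NuRD subunits through which NAB proteins repress, 9 of 11 listed were on the array, all well above background, and none was 2-fold different at any time. For 9 genes this is near the shares over all genes, 0.965% to 2.04% higher and 1.16% to 1.84% lower. The medians of the 9 were 0.09, 0.04, 0.06 and -0.07. Chd4, the NuRD helicase that Nab2 is known to bind, had log2 changes of 0.08 to 0.39, and 0.05 to 0.25 by another probe. Chd3, a relative of Chd4, had 0.18 to 0.33, and Gatad2a -0.47 to 0.06. Of other factors that bind GC-rich sites, Sp1 was well above background on all arrays, with changes of -0.08 to 0.24, Sp4 on 1 array and Wt1 on none.

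The identity of the cells was checked on marker genes. Of 12 hepatocyte markers, 11 were well above background on every array and Tdo2 on none, and their summed level was 907 to 989 times the 75th percentile. The summed levels of the macrophage, endothelial, stellate and fibroblast, and biliary markers, 3 of each on the array, of which 1 or 2 were detected per array, lay between 0.163 and 1.80, most of the highest sum being Col1a1, and Cd163, Pecam1, Lrat and Krt7 were well above background on no array. The macrophage sum was highest at 15 min, at 0.320 against 0.198 at 0 min, and Clec4f, a Kupffer cell lectin, was 1.29 log2 units higher there. At 60 min the macrophage sum was 0.163 and the endothelial sum 0.196, each the lowest of the 5 arrays. The part of these markers in the values of the members at 15 and 60 min was not tested.

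The values of the members under other ways of processing the arrays are plotted for the peak and the end of the course. Egr2 at 30 min lay between 2.31 and 2.46 over all settings against 0 min, and Egr1 between 0.82 and 0.97. At 60 min Egr1 lay between -2.20 and -1.86 and Egr2 between -1.45 and -1.12. Calls near the background depended on the processing. Beside the normexp values of Nab1 and Nab2 given above, the bound of Egr3 at 30 min lay between 0.41 and 1.10 over the settings.

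**Figure D5:**
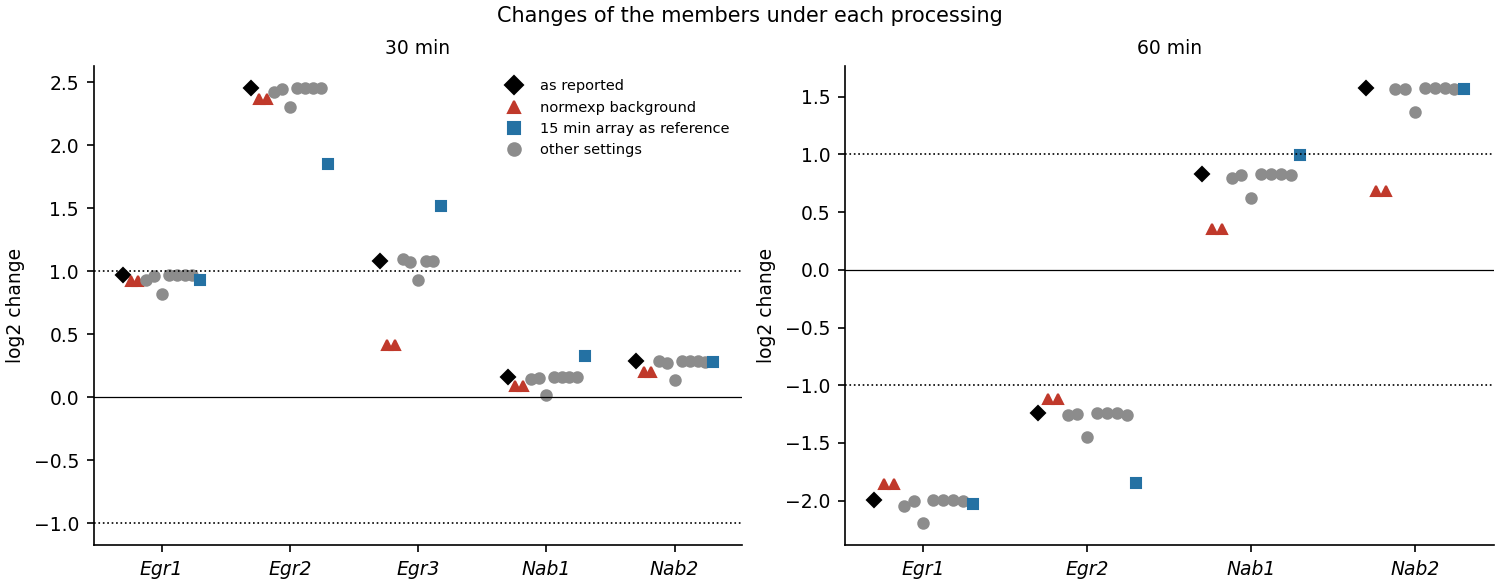
Log2 change of each member at 30 min and at 60 min as reported (black diamonds) and under each other setting, with dotted lines at 2-fold. Triangles are the normexp background, squares the 15 min array as reference and circles the rest. Egr1 and Egr2 stay on their side of 0 throughout, and Nab2 at 60 min lies at 0.69 with normexp against 1.58 as reported.

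On assembly rn4, named in the file headers, the probes lie at chromosome 18, 27347173 to 27347232 (Egr1), chromosome 20, 21883940 to 21883999 (Egr2), chromosome 15, 50478983 to 50479042 (Egr3), chromosome 4, 119765289 to 119765348 (Egr4), chromosome 9, 46104881 to 46113704 (Nab1) and chromosome 7, 67646690 to 67646749 (Nab2). The span of 8824 bases for Nab1 is longer than the 60 bases of the others. Exons and untranslated regions were not assigned, since no annotation of rn4 was used here.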

How the data were processed

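Per the file headers, Agilent Feature Extraction 9.5.3.1 (array design 014879) made the deposited intensity values and their errors: a spatially detrended background was subtracted and a multiplicative trend removed within each array. Its deposited flags for outliers, saturation (0 spots) and signal well above background (50.9% to 56.5% of 43379 non-control spots, called detected here) were used. For the deposited log2 series matrix the sources used here state no processing; its values matched log2 signal over the 75th percentile centred on each probe's median (r = 0.9994 to 0.9999 across 19746 probes, which are not independent replicates), and its column medians were 0.

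Control and outlier spots were left out, spots of a probe averaged, and signals divided by the 75th percentile of their array. Signals under the dimmest detected one were raised to it before log2 was taken. For the slopes, all levels were raised to at least the highest of these dimmest levels over the 5 arrays. Genes were named by accession or symbol through RefSeq (GRCr8) and represented by their brightest probe; 5 of 6 members had a promoter entry, Egr3 none. Slopes came from limma 3.58.1 in R 4.3.3, tested on simulated data like the bounds; other steps used Python 3.11.15 with matplotlib 3.10.9, pandas 2.3.3 and numpy 2.4.6. Named were all members, the 3 genes per list with the largest mean change among those detected on all arrays, and the 5 nearest profiles of members detected on all arrays that spanned at least 1 log2 unit; Ptges, outside this rule, was named after its values were seen, and some genes under the rule are not reported here. Members and lists were chosen with earlier results of these data known. Alternatives varied the background, scaling, probe choice, filter, value source, reference array and arrays fitted.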

Additional observations from a re-analysis of the deposited data

How the results depend on the processing

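Of 172 member changes recomputed under other settings, 144 moved by less than the technical SD of a change, and no change of 2-fold or more turned its direction. The mean over probes (each member has 1) and the filter settings could only return the same value, for 18, 18 and 16 of the 144. The series matrix (16) is on nearly the same scale. Quantile and median scaling moved none of 18 each. With normexp on all spots 9 moved and 9 stayed, as with control-transcript scaling. Without the distorting spots 5 moved and 13 stayed, and with the 15 min reference 5 and 9. Against 2 members 2-fold higher at 30 min, 1 was found with normexp on all spots, with normexp fitted without 5 distorting spots of the 15 min array (chosen after seeing the data), with control-transcript scaling, with genes restricted to those detected on every array, and with the series matrix. The last 2 do not include Egr3, and in the others its bound fell under 2-fold. At 60 min 0 members were higher with either normexp setting, against 1. At 15 min 1 was higher with normexp on all spots, Nab2, against 0; there 3282 of all genes were higher against 179, and 5 without the distorting spots. The cause of the other shifts was not tested. Slopes of opposite sign, none past the threshold, were -0.00291 for Egr3, -0.0685 for Nab1 and -0.0384 for Nab2 with normexp on all spots. Leaving out each array in turn gave -2.85 to 0.309 for Egr1, -2.64 to 2.42 for Egr2, -0.0458 to 1.63 for Egr3, 0.314 to 1.19 for Nab1 and 0.762 to 1.99 for Nab2; Egr1 and Egr2 turned upward without 60 min, and Egr3 downward without 0 min. The limma adjusted p over all fits was 0.183 to 0.882 for Nab2 and at least 0.218 for the others.

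Counts over all genes moved with the dim probes. As reported, 179, 192, 246 and 400 were 2-fold higher and 265, 214, 288 and 361 lower at 15, 30, 45 and 60 min. With normexp without the distorting spots these were 5, 14, 27 and 49 higher and 27, 21, 22 and 91 lower. Among genes detected on every array they were 12, 31, 43 and 98 higher and 36, 33, 44 and 86 lower, and in the series matrix 12, 31, 43 and 91 higher and 36, 33, 42 and 89 lower. With no filter on dim genes, 282 and 290 were higher at 15 and 30 min and 668 lower at 60 min. Limma called 4 slopes among genes detected on every array, against 0, none of a member. Control-transcript scaling moved the median gene to -0.15, -0.13, -0.19 and -0.17 log2 units. No paired analysis was possible because each time has 1 array.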
